A study of Mus musculus with 6 samples.

Results

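The Egr, Ier, Csrnp1, Midn and Dusp genes described here are 10 immediate early genes, Egr1, Egr2, Ier2, Ier5, Csrnp1, Midn, Dusp1, Dusp2, Dusp5 and Dusp10. They were taken by symbol from the 31253 genes of the deposited matrices, and all 10 were present. The samples were 6 single-cell libraries of mouse peripheral blood mononuclear cells, 3 of a type 2 diabetes model (T2D) and 3 of healthy controls (Con). T2D mice had an intraperitoneal injection of streptozotocin, a toxin of the insulin-producing beta cells, and the titles name the model HFD/STZ. Con mice had an injection of saline, and their diet is not given in the labels. All mice were male and 12 to 13 weeks old, with no genetic modification named. Mononuclear cells were separated on a Ficoll gradient, red cells were lysed, and the 3′ end of messenger RNA was captured in BD Rhapsody cartridges. There a cell barcode and a unique molecular identifier (UMI) mark each captured molecule. Whether 1 mouse or several gave the cells of a library is not stated in the labels, so each p-value covers only how these libraries varied, which may be technical.

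Immediate early genes are transcribed within minutes of a stimulus such as antigen, growth factor or handling of the cell, from factors that are already present, and their messenger RNAs are short-lived. Many are targets of the MAP kinase cascades, through the serum response factor at CArG boxes or through CREB at cyclic AMP response elements (CRE). Some of the products are transcription factors that carry the response on, and others, such as the dual-specificity phosphatases (Dusp), switch the kinases off again. In lymphocytes they report recent signalling through the antigen receptor, and in monocytes and neutrophils they accompany activation and adhesion.

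RefSeq promoter windows on GRCm38.p6 were held for 8 of the genes, 16 windows in all, and the stretch from 250 to 51 bases before the start was searched on both strands. The motifs were the CArG box, the full CRE TGACGTCA, its half-site TGACG, and the AP-1 motif TGANTCA, which Fos and Jun proteins bind. A full CRE holds a half-site on each strand. Among all 32851 windows of that length, 1.16% held a CArG box, 0.828% a full CRE, 12.7% a CRE half-site and 5.57% an AP-1 motif. The 5 sequences below are those of Csrnp1, Midn and Dusp10, each lower in T2D in at least 2 cell classes, and of Dusp1 and Dusp5, the members with a call above 0. Ier5 and Dusp2 were also lower in at least 2 classes, and their windows, which held no match, are not printed. Each runs 5′ to 3′ on the gene's own strand, with motif matches in capitals. The first is the outermost of the Csrnp1 starts, chr9:119984793-119984992 on the minus strand, with a CRE half-site on the reverse strand 142 to 138 bases before the start. It overlaps exons of 1700019L13Rik, a gene on the opposite strand. Of the 4 Csrnp1 windows, 3 held a CRE half-site and 1 held an AP-1 motif.
Csrnp1: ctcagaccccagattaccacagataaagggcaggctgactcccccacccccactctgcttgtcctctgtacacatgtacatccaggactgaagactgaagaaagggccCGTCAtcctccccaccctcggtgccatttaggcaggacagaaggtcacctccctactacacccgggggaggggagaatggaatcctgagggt
The first Midn window, chr10:80148022-80148221 on the plus strand, held a CRE half-site at 96 to 92 bases, and the other Midn window held no match.
Midn: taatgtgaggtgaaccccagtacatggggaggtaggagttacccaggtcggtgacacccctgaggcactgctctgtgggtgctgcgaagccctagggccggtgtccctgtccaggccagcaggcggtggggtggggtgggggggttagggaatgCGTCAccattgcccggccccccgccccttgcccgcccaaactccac
Dusp10, chr1:184034131-184034330 on the plus strand, held none of the 4 motifs in this window, which overlaps exons of 1700056E22Rik.
Dusp10: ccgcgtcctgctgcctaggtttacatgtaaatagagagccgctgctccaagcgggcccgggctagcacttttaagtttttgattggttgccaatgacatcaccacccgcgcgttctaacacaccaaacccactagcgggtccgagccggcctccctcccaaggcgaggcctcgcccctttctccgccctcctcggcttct
Dusp1, chr17:26508523-26508722 on the minus strand, held a full CRE at 143 to 136 bases and a further half-site at 191 to 187 bases.
Dusp1: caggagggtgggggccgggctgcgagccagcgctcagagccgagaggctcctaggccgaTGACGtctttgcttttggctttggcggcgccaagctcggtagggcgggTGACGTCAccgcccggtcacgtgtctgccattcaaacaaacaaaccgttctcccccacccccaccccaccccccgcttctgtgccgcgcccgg
Dusp5, chr19:53528895-53529094 on the plus strand, held CArG boxes at 82 to 73 and at 72 to 63 bases, side by side, and a CRE half-site at 55 to 51 bases. This window overlaps exons of AC137853.2, a gene on the opposite strand.
Dusp5: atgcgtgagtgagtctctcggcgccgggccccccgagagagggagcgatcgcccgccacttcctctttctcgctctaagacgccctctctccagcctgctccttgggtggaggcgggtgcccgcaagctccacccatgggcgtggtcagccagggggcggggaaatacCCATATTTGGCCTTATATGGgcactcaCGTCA
Of the other members, Egr2 had a CArG box in 4 of its 5 windows, 3 of which overlap and hold the same box, while Ier5 and Dusp2 had no match in the window of each. A match describes letters and not a bound site, and no match says only that the letters are not in this stretch.

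The libraries held 29329361, 32321855 and 29712873 UMIs in T2D and 25580045, 23574052 and 27157764 UMIs in Con. Of 49407 barcodes, 49025 passed the cell filters, and 38114 of these (77.7%) met a gate on lineage marker UMIs that uses none of the 10 genes. The gated classes were B-like (23896 cells), CD4 T-like (4184), CD8 T-like (3885), Ccl5-high T-like (2515, T cells with many UMIs of the effector chemokine Ccl5), NK-like (1004), classical monocyte-like (525), non-classical monocyte-like (920) and neutrophil-like (946). A regulatory T-like class had 13 to 96 cells a library and was not tested. Libraries shared 1127 of 48270 distinct barcodes, and of 688 gated pairs with the same barcode 42.0% were in the same class, against 42.2% by the class shares. Counts were summed per library and class and are given as counts-per-million values (CPM) of that sum. T2D was compared with Con by edgeR's quasi-likelihood test over all genes of a class, with Benjamini-Hochberg adjustment and a call at an adjusted p under 0.05. A log2 fold change below 0 means lower in T2D.

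Of the 80 combinations of a gene and a class, 73 had enough counts for the test, 19 of these were lower in T2D and 3 were higher. In CD4 T-like cells 5 of 10 genes fell, against 2.1% of all genes tested there. In CD8 T-like cells 4 of 9 fell (0.873% of all genes), in Ccl5-high T-like cells 3 of 9 fell and 1 rose (1.66% and 1.42% of all genes), and in B-like cells 2 of 10 fell (0.76%). In NK-like cells 1 of 9 fell (0.124%), and in neutrophil-like cells 1 of 9 (1.1%). Non-classical monocyte-like cells had 3 of 9 lower and 1 higher (0.517% and 0.287%), and classical monocyte-like cells had none of 8 lower and 1 higher (0.333% and 0.367%). There none was lower at an unadjusted p under 0.05 either, and DESeq2 called none. With no gate, in the sum of all cells of a library, 3 of 10 were lower (1.95%), which were Csrnp1, Midn and Dusp10. The Dusp10 call there (adjusted p = 0.0297) was lost without T2D 1, T2D 2, T2D 3, Con 2 or Con 3 (adjusted p = 0.0531, 0.094, 0.0635, 0.105 and 0.0978). The median log2 fold change of the members tested was lowest in non-classical monocyte-like cells, -0.48, and highest in classical monocyte-like cells, 0.09. It was -0.43 in CD4 T-like, -0.45 in CD8 T-like, -0.36 in Ccl5-high T-like, -0.20 in B-like, -0.08 in NK-like and -0.36 in neutrophil-like cells, where the median of all genes was within 0.01 of 0 in each class. All T2D libraries lay below all Con libraries in CPM for 3 of 10 members in B-like cells (8.15% of all genes), 5 of 10 in CD4 T-like (5.9%), 5 of 9 in CD8 T-like (6.71%), 5 of 9 in Ccl5-high T-like (6.51%), 1 of 9 in NK-like (6.65%), none of 8 in classical monocyte-like (6.3%), 4 of 9 in non-classical monocyte-like (6.18%) and 3 of 9 in neutrophil-like cells (8.19%).

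Egr1 and Egr2 are zinc finger transcription factors. Egr1 is the classical early target of ERK and serum response factor, and Egr2 is known in T cells for restraining activation. Neither was called in any class by edgeR or DESeq2, where 2 of 8 tests of Egr1 and 2 of 3 of Egr2 had an unadjusted p under 0.05. By class, 8.3% to 16% of all genes tested had one. Egr1 varied widely between libraries of 1 group in the myeloid classes. Neutrophil-like cells had 465, 1753 and 1226 CPM in T2D, against 2382, 2579.7 and 562 CPM in Con. The Con 3 library was the low one of its group, and the groups overlapped. Classical monocyte-like cells had 843, 681 and 281 CPM of Egr1 in T2D, against 329.8, 407 and 80.9 CPM in Con, with T2D 3 and Con 3 lowest in their groups. In non-classical monocyte-like cells Egr1 was at 206, 109 and 59.6 CPM in T2D, against 184, 673 and 99.3 CPM in Con (log2 fold change -1.24, SE 0.94, adjusted p = 0.848), and Con 2 alone stood high. In CD4 T-like cells Egr1 was at 67.8, 119 and 61.3 CPM in T2D, against 109, 118 and 90.6 CPM in Con (log2 fold change -0.44, SE 0.32, adjusted p = 0.608 by edgeR). There T2D 2 was at the level of Con while the other 2 T2D libraries lay below all Con libraries. Without T2D 2 the difference was called in CD4 T-like cells (-0.79, adjusted p = 0.000124), in CD8 T-like cells (-1.07, adjusted p = 0.0334) and in B-like cells (-0.61, adjusted p = 0.000782). T2D 2 was singled out after its Egr1 values were seen, so these calls add no support to the fits with all libraries.

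The share of CD4 T-like cells with an Egr1 UMI, after each cell was thinned to 1000 UMIs, was 4.46% ± 0.415 in T2D and 9.13% ± 1.22 in Con (SD, n = 3 each), and here the groups did not overlap. The exact two-sided permutation p was 0.1, the smallest that 3 against 3 libraries can give. Unthinned, the shares were 13.7% in T2D and 24.6% in Con.

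Egr2 had counts for a test in 3 classes, all with a log2 fold change above 0. Neutrophil-like cells had 53.6, 60.4 and 62.5 CPM in T2D, against 28.0, 41.8 and 11.0 CPM in Con, from sums of only 57 UMIs in T2D and 35 in Con. The ranges did not overlap, and the test did not call it (0.96, SE 0.37, adjusted p = 0.286). In CD4 T-like cells Egr2 had 8.71, 6.10 and 5.02 CPM in T2D, against 4.38, 3.32 and 2.36 CPM in Con, from 58 UMIs in T2D and 21 in Con (0.91, SE 0.40, adjusted p = 0.249). There the fitted changes of the 2 Egr genes had opposite signs, and neither passed the test. Of the other Egr genes and the Nab corepressors that bind Egr proteins, Nab2 fell in CD4 T-like cells (26.2 ± 1.39 CPM in T2D and 38.1 ± 4.53 CPM in Con, log2 fold change -0.62, adjusted p = 0.0186), 1 of 2 tested there, and none was called in the other classes by edgeR, while DESeq2 called Egr3 in B-like cells in its place.

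**Figure D1:**
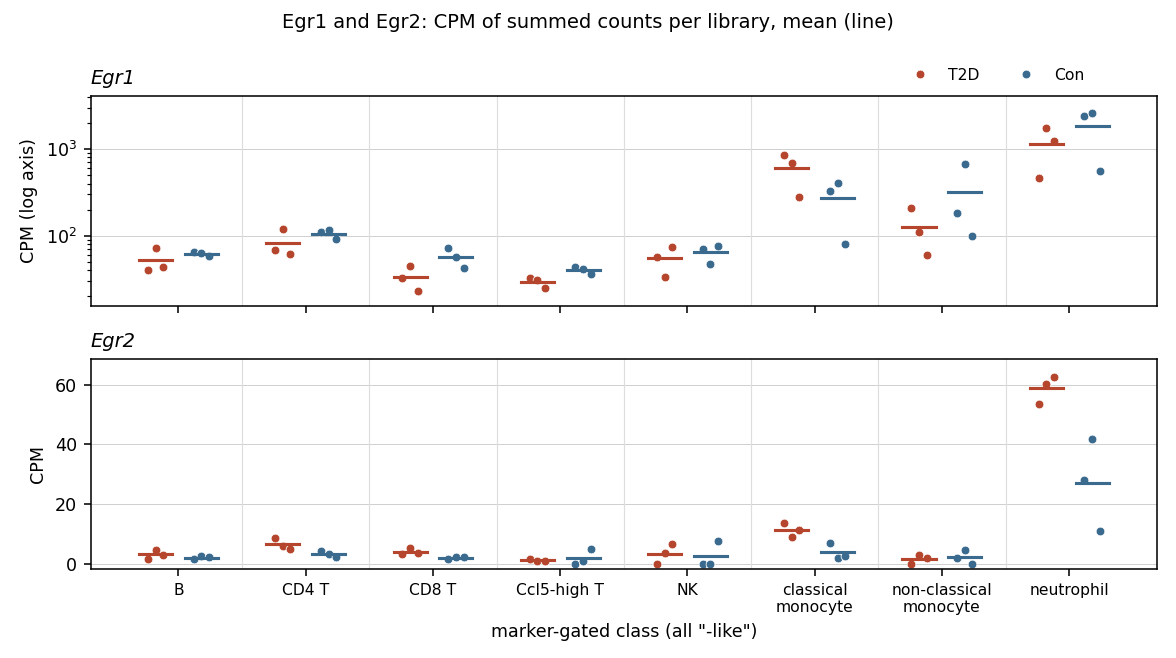
CPM of Egr1 (log axis) and Egr2 (linear axis) in each library by class, T2D left in red and Con right in blue, with a line at the group mean. Egr1 in neutrophil-like cells ran from 465 to 1753 CPM in T2D and from 562 to 2579.7 CPM in Con, so the groups overlap, while Egr2 in those cells was higher in all 3 T2D libraries.

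Ier2 and Ier5 encode nuclear regulators of transcription, and Ier5 is known to act on the heat shock factor HSF1. Ier2 had a log2 fold change below 0 in all 8 classes and fell in 4. Non-classical monocyte-like cells had 439.7, 332 and 330.0 CPM of Ier2 in T2D, against 656, 654 and 455 CPM in Con (-0.72, SE 0.14, adjusted p = 0.00528). All T2D libraries were below all Con libraries, but the call was lost without Con 1 (adjusted p = 0.202) or without T2D 2 (adjusted p = 0.0709). CD8 T-like cells had 135, 127 and 119.6 CPM in T2D, against 208, 194 and 169 CPM in Con (-0.62, SE 0.08, adjusted p = 3.53e-05), a gap that was called in every alternative fit. CD4 T-like cells had 131, 135 and 123 CPM in T2D, against 204, 186 and 147 CPM in Con (-0.53, SE 0.10, adjusted p = 0.0023). In both T cell classes the groups did not overlap. Ccl5-high T-like cells had 150.5, 141 and 104 CPM in T2D, against 203, 204 and 167 CPM in Con (-0.59, SE 0.13, adjusted p = 0.0145), and this call was lost without Con 1 (adjusted p = 0.0921) or without Con 2 (adjusted p = 0.125). B-like cells showed as wide a gap, 157, 137 and 114 CPM in T2D against 250.3, 212 and 186 CPM in Con, with no overlap, yet the test did not call it (-0.68, SE 0.17, adjusted p = 0.175). There the share of cells with an Ier2 UMI at equal depth was 12.2% ± 2.00 in T2D and 19.4% ± 2.89 in Con (SD, n = 3 each, exact permutation p = 0.1), and unthinned 29.6% in T2D and 42.0% in Con.

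Ier5 fell in the 3 T cell classes. CD4 T-like cells had 211, 241 and 204 CPM in T2D, against 284, 295 and 248 CPM in Con (-0.41, SE 0.08, adjusted p = 0.00383), and without Con 2 the adjusted p was 0.0557. CD8 T-like cells had 208, 188 and 178 CPM in T2D, against 294, 252 and 223 CPM in Con (-0.45, SE 0.09, adjusted p = 0.00441), and without Con 1 the adjusted p was 0.0729. Groups were apart in each of these classes by a narrow margin. In Ccl5-high T-like cells T2D libraries lay close together at 201, 204 and 200.1 CPM, against 301, 244 and 224 CPM in Con (-0.40, SE 0.10, adjusted p = 0.0238). That call was lost without any 1 of T2D 1, T2D 3, Con 1 and Con 2 (adjusted p = 0.0607, 0.0702, 0.193 and 0.107) and with library totals as the only scaling (0.0599). With a stricter gate none of the 4 calls in Ccl5-high T-like cells was made (adjusted p = 0.0781 for Ier2, 0.33 for Ier5, 0.198 for Csrnp1 and 0.121 for Dusp5). B-like cells, with 556 ± 58.0 CPM in T2D and 599 ± 129 CPM in Con (SD, n = 3 each), and NK-like cells, with 432 ± 48.8 CPM in T2D and 432 ± 78.0 CPM in Con, overlapped. Of the related genes Ier3, Ier5l, Csrnp2 and Csrnp3, Ier3 was called in neutrophil-like cells, where it was the 1 tested, and no other was called in any class (130.4 ± 27.1 CPM in T2D and 277 ± 59.0 CPM in Con, log2 fold change -1.13, adjusted p = 0.00494).

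Csrnp1 encodes a cysteine- and serine-rich nuclear protein that activates transcription. Of the 10 genes it fell in the most classes, 5 of 8, with a median log2 fold change of -0.82 over the classes, and it was below 0 in every one. In CD4 T-like cells it was at 186, 185 and 150.1 CPM in T2D, against 349, 345 and 326 CPM in Con (-1.04, SE 0.09, adjusted p = 1.51e-08). No T2D library came near a Con library. Non-classical monocyte-like cells had 209, 154 and 147 CPM in T2D, against 358, 409 and 285 CPM in Con (-1.09, SE 0.15, adjusted p = 7.41e-06). In B-like cells, the largest class, the groups were also apart and the fold was smaller, with 278, 268 and 274 CPM in T2D, against 364, 356 and 389 CPM in Con (-0.45, SE 0.06, adjusted p = 0.000353). These 3 calls held in every alternative fit.

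NK-like cells had 142, 126 and 113 CPM of Csrnp1 in T2D, against 203, 204 and 240.3 CPM in Con (-0.77, SE 0.16, adjusted p = 0.00534, and 0.0784 without T2D 3). Ccl5-high T-like cells had 136, 91.2 and 98.6 CPM in T2D, against 149.9, 164 and 179 CPM in Con (-0.67, SE 0.13, adjusted p = 0.00326, and 0.0512 without Con 3). In both classes the groups stood apart. CD8 T-like cells had 154, 116 and 91.3 CPM in T2D, against 259, 249 and 225 CPM in Con, a fold as large as in CD4 T-like cells with a wider spread in T2D (-1.05, SE 0.20, adjusted p = 0.103). It was called without T2D 1 (-1.27, adjusted p = 3.13e-09) or without T2D 3 (-0.87, adjusted p = 3.09e-05). Neutrophil-like cells had 697, 938 and 838 CPM in T2D, against 1184, 1722 and 1091 CPM in Con (-0.69, SE 0.19, adjusted p = 0.0739), and the call was reached without Con 3 (-0.82, adjusted p = 0.0255). Classical monocyte-like cells overlapped, as T2D 1 was at 539 CPM beside 256 and 204 CPM in the other T2D libraries, against 623, 684 and 451 CPM in Con (-0.86, SE 0.46, adjusted p = 0.75), and without T2D 1 it was called (-1.36, adjusted p = 6.23e-12). In these last 3 classes each library left out lay at an end of its group's range. Leaving it out narrows the spread, so these calls add no support to the fits with all libraries.

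In T and B cells fewer cells held a Csrnp1 UMI in T2D than in Con. At 1000 UMIs a cell, 15.3% ± 0.631 of CD4 T-like cells in T2D and 28.9% ± 2.32 in Con had one, and unthinned 39.8% in T2D and 65.0% in Con. In CD8 T-like cells the shares were 11.2% ± 2.19 in T2D and 20.9% ± 0.716 in Con (unthinned 35.6% in T2D and 59.4% in Con), and in B-like cells 23.0% ± 0.556 in T2D and 29.8% ± 1.00 in Con (unthinned 49.7% in T2D and 57.8% in Con). None of these groups overlapped, and each exact permutation p was 0.1, the smallest possible (SD, n = 3 each). In non-classical monocyte-like cells the thinned shares were 15.7% ± 2.89 in T2D and 24.1% ± 7.80 in Con, and these overlapped (unthinned 42.0% in T2D and 63.5% in Con). The T cell gene Cd3e had a UMI in 2.81% of B-like cells in T2D and 2.31% in Con, at the same 1000 UMIs. The B cell gene Cd79a had one in 0.943% of CD4 T-like cells in T2D and 1.40% in Con. Both are gate markers, and the gate allowed at most 2 UMIs of the other lineage's markers. These shares are therefore capped by the gate and cannot gauge the amount of free RNA. Cells under that depth were left out, which took 80 in T2D and 91 in Con of the neutrophil-like cells (346 in T2D and 429 in Con were used) and 40 in T2D and 41 in Con of the classical monocyte-like cells (240 in T2D and 204 in Con were used). In the other classes it took a small share, with the highest numbers, 180 in T2D and 211 in Con, in the B-like cells.

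The Csrnp1 difference was larger in CD4 T-like than in B-like cells. A test of the difference itself, with the library as a block, gave a log2 difference of -0.59 (SE 0.08, adjusted p = 1.37e-06 by edgeR), where 1.77% of all genes were called. It was called in all alternative fits, also without any 1 library. For CD8 T-like against B-like cells it was -0.60 and not called (SE 0.21, adjusted p = 0.57), and for CD8 T-like against CD4 T-like cells -0.03 (SE 0.09, adjusted p = 0.973).

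**Figure D2:**
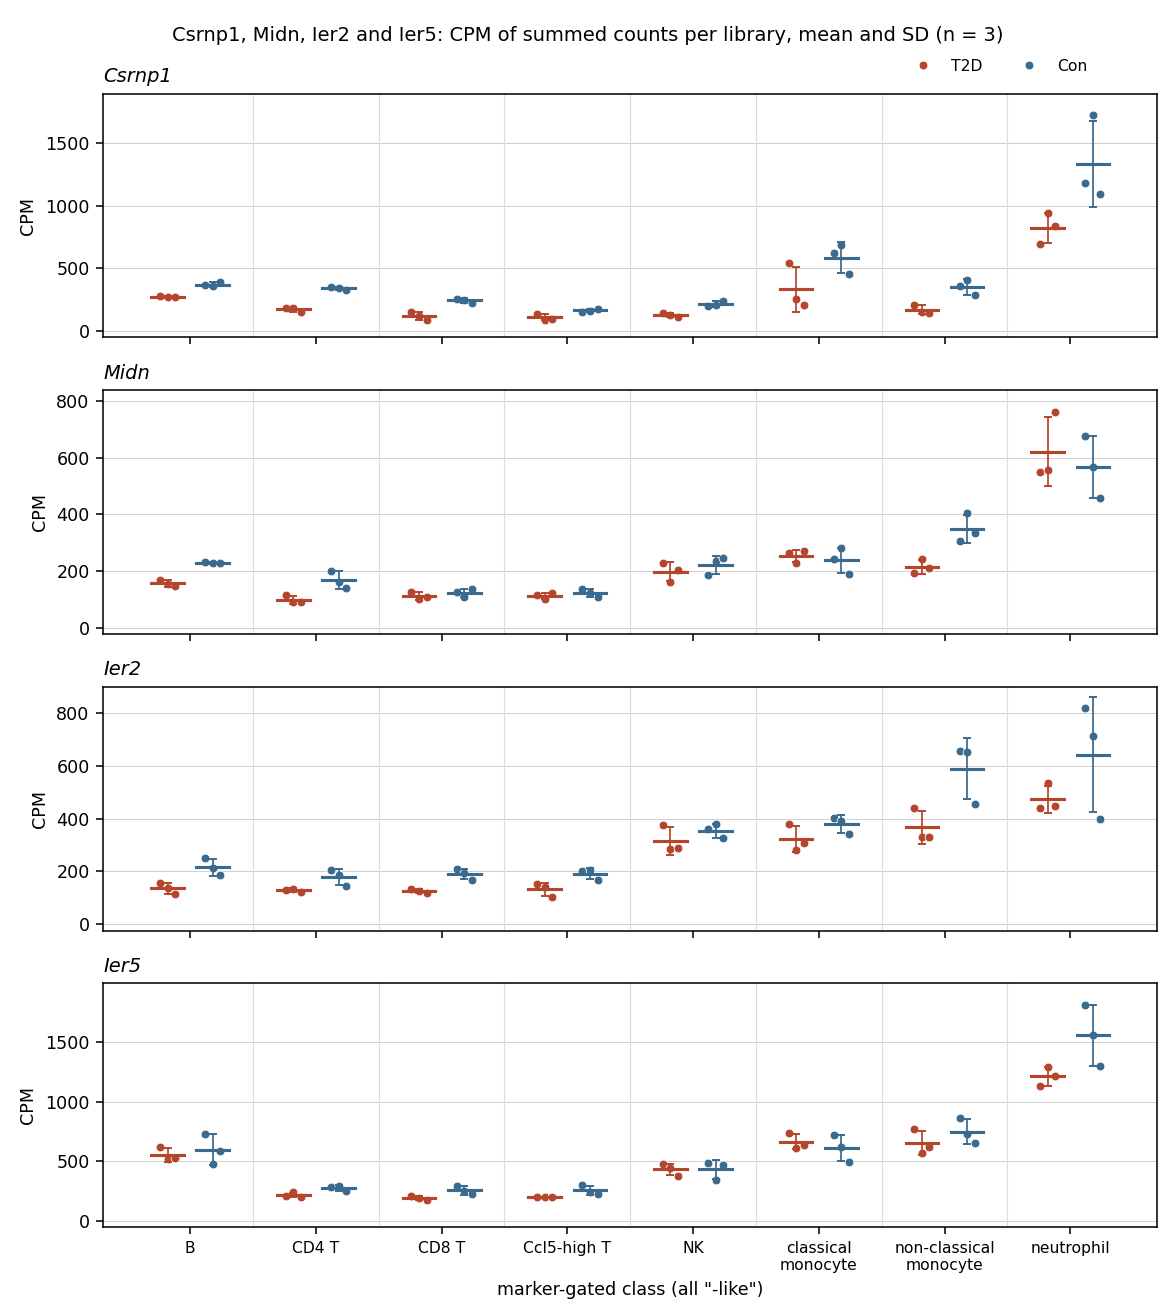
CPM of Csrnp1, Midn, Ier2 and Ier5 in each library by class on linear axes, T2D left in red and Con right in blue, with the group mean and SD. The 3 T2D points of Csrnp1 lie below all Con points in 7 of the 8 classes, classical monocyte-like cells being the exception, whereas the Midn groups are apart in B-like, CD4 T-like and non-classical monocyte-like cells.

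Midn encodes midnolin, which is known to carry immediate early transcription factors, Egr1 among them, to the proteasome without ubiquitin. It fell in 3 classes. B-like cells had 169.5, 153 and 148 CPM in T2D, against 231, 228 and 227 CPM in Con (-0.56, SE 0.06, adjusted p = 0.000147). The Con libraries lay within a few CPM of each other, and no T2D library came near them. CD4 T-like cells had 115, 89.6 and 92.3 CPM in T2D, against 201, 162 and 139 CPM in Con (-0.83, SE 0.13, adjusted p = 0.00166). Non-classical monocyte-like cells had 194, 243 and 209.9 CPM in T2D, against 307, 405 and 335 CPM in Con (-0.65, SE 0.14, adjusted p = 0.005, and 0.0589 without Con 2). The shares of cells with a Midn UMI at 1000 UMIs were 14.6% in T2D and 19.6% in Con for B-like cells, 8.77% in T2D and 13.8% in Con for CD4 T-like cells, and 17.1% in T2D and 29.5% in Con for non-classical monocyte-like cells (exact permutation p = 0.1 each, n = 3). Unthinned, these were 33.0% in T2D and 42.3% in Con for B-like, 26.2% in T2D and 39.8% in Con for CD4 T-like, and 52.9% in T2D and 66.3% in Con for non-classical monocyte-like cells.

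In the other classes Midn overlapped between groups. CD8 T-like cells had 127, 102 and 108 CPM in T2D, against 126, 109 and 137 CPM in Con (-0.18, SE 0.10, adjusted p = 0.432), and neutrophil-like cells had 548, 556 and 763 CPM in T2D, against 677, 567 and 457 CPM in Con (0.13, SE 0.18, adjusted p = 0.869). The difference between classes was tested in 5 pairs and called in 4. The log2 fold change was higher in CD8 T-like than in CD4 T-like cells by 0.63 (SE 0.12, adjusted p = 0.00108, against 1.05% of all genes called). It was higher than in B-like cells by 0.39 in CD8 T-like cells (SE 0.09, adjusted p = 0.00917, 0.661% of all genes), by 0.66 in classical monocyte-like cells (SE 0.16, adjusted p = 0.0132, 0.451%) and by 0.73 in neutrophil-like cells (SE 0.19, adjusted p = 0.028, 0.464%). Of these, the contrast of CD8 T-like with CD4 T-like cells was called without any 1 library, and missed the threshold with a stricter gate (adjusted p = 0.0718). The one with CD8 T-like and B-like cells was lost without T2D 1 (adjusted p = 0.0885) or Con 2 (0.202). The classical monocyte-like one was lost without T2D 3 (0.256), Con 1 (0.0544) or Con 3 (0.292), and the neutrophil-like one without T2D 2 (0.127), T2D 3 (0.865) or Con 3 (0.384).

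Dusp1, Dusp2, Dusp5 and Dusp10 remove phosphates from MAP kinases in the nucleus or the cytoplasm. Dusp1 and Dusp10 act mainly on p38 and JNK, Dusp5 on ERK, and Dusp2 is a nuclear phosphatase of activated lymphocytes and myeloid cells. They did not move as 1 group. Dusp10 and Dusp2 fell in 2 classes each, Dusp5 rose in 2, and Dusp1 rose in 1.

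Dusp10 was most abundant in CD4 T-like cells, and it fell there to 479, 583 and 436 CPM in T2D, against 919, 1011 and 877 CPM in Con (-0.98, SE 0.10, adjusted p = 1.71e-05). The highest T2D library stayed well below the lowest Con library. At 1000 UMIs, 34.7% ± 4.22 of the CD4 T-like cells in T2D and 53.6% ± 5.06 in Con had a Dusp10 UMI (SD, n = 3 each, exact permutation p = 0.1), and unthinned 66.4% in T2D and 82.4% in Con. CD8 T-like cells had 138, 159.6 and 171 CPM in T2D, against 212, 209 and 230.0 CPM in Con (-0.51, SE 0.08, adjusted p = 0.000188), and the thinned shares were 13.1% ± 0.769 in T2D and 18.05% ± 1.33 in Con, again apart (unthinned 38.7% in T2D and 44.5% in Con). Both calls held in every alternative fit. Outside T cells Dusp10 was low, and at 1000 UMIs 2.01% of B-like cells in T2D and 2.22% in Con had a UMI of it. Cd3e was found there in 2.81% in T2D and 2.31% in Con, a share that the gate caps, while it does not cap Dusp10. Whether the Dusp10 UMIs of B-like cells are free RNA was not tested. In neutrophil-like cells the T2D 1 library had 0 UMIs, where 3 UMIs would be 17.9 CPM. Set against B-like cells, where Dusp10 was low, the fold of CD8 T-like cells differed by -0.41 on the log2 scale (SE 0.11, adjusted p = 0.0443). This call was lost without T2D 2, T2D 3, Con 2 or Con 3 (adjusted p = 0.146, 0.240, 0.239 and 0.271). For CD4 T-like against B-like cells the difference was -0.88 and not called (SE 0.22, adjusted p = 0.201), though it was without T2D 1 (adjusted p = 6.86e-10), T2D 3 (0.00166) or Con 2 (0.0375).

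Dusp2 fell in CD8 T-like cells, with 612, 695 and 654 CPM in T2D, against 768, 773 and 888 CPM in Con (-0.35, SE 0.07, adjusted p = 0.00339, and 0.0795 without Con 3). In neutrophil-like cells it fell further, with 280.2, 269 and 164 CPM in T2D, against 453, 617 and 429.9 CPM in Con (-1.11, SE 0.21, adjusted p = 0.0064), and the thinned share was 15.0% ± 4.004 in T2D and 30.4% ± 3.76 in Con (unthinned 22.9% in T2D and 40.4% in Con). With a looser gate for neutrophil-like cells the adjusted p was 0.123. The groups were apart in both classes. In NK-like cells, where Dusp2 was highest, it did not separate the groups, with 3902, 3939 and 3445 CPM in T2D, against 3245, 3545 and 4416 CPM in Con (0.00, SE 0.09, adjusted p = 0.993).

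Dusp5 rose where other members fell. Ccl5-high T-like cells had 461, 449 and 407 CPM in T2D, against 312, 314 and 315 CPM in Con (0.42, SE 0.09, adjusted p = 0.00792, and 0.0896 without Con 2). All T2D libraries were above the tight Con group, and the share of cells with a UMI at equal depth was 33.8% ± 1.55 in T2D and 23.7% ± 0.745 in Con (unthinned 70.1% in T2D and 63.8% in Con). Non-classical monocyte-like cells had 627, 929.9 and 844 CPM in T2D, against 629, 480.0 and 513 CPM in Con (0.53, SE 0.12, adjusted p = 0.0163). Here T2D 1 was level with Con 1, so the CPM ranges met, while the thinned shares stood apart at 54.9% ± 3.49 in T2D and 34.8% ± 3.37 in Con (unthinned 86.3% in T2D and 73.2% in Con). The call was lost without T2D 2, T2D 3, Con 2 or Con 3 (adjusted p = 0.267, 0.0571, 0.129 and 0.0671) and with DESeq2 (0.091). NK-like cells had 911, 1002 and 889 CPM in T2D, against 655, 750.3 and 821 CPM in Con, with no overlap and no call (0.32, SE 0.10, adjusted p = 0.213). In CD4 T-like cells Dusp5 was at 340.0, 506 and 314 CPM in T2D, against 499.7, 477 and 417 CPM in Con. T2D 2 stood out as it did for Egr1, and without it Dusp5 was lower in T2D (-0.59, adjusted p = 7.19e-05), against -0.34 and an adjusted p of 0.581 with all libraries. T2D 2 was again singled out by its value, so the call without it adds no support.

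Dusp1 was by level a myeloid gene, and it rose in classical monocyte-like cells, with 1944, 1720.2 and 2041 CPM in T2D, against 1393, 1215 and 1612 CPM in Con (0.44, SE 0.11, adjusted p = 0.0382). The groups were apart, but the call was lost without any 1 of T2D 1, T2D 2, T2D 3, Con 1 and Con 2 (adjusted p = 0.0649, 0.0634, 0.103, 0.234 and 0.387), and it was not made by DESeq2 (0.134), with a looser gate (0.0762) or without the cells of most UMIs (0.181). Dusp1 in non-classical monocyte-like cells was at 3462, 2687 and 3524 CPM in T2D, against 2601, 2005 and 2825 CPM in Con (0.35, SE 0.11, adjusted p = 0.179), and neutrophil-like cells had 5103, 5062 and 5764 CPM in T2D, against 6432, 5524 and 4906 CPM in Con (-0.08, SE 0.16, adjusted p = 0.926). Both overlapped. In the lymphocyte classes Dusp1 was not called in any, with log2 fold changes from -0.02 in CD4 T-like to 0.36 in NK-like cells.

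**Figure D3:**
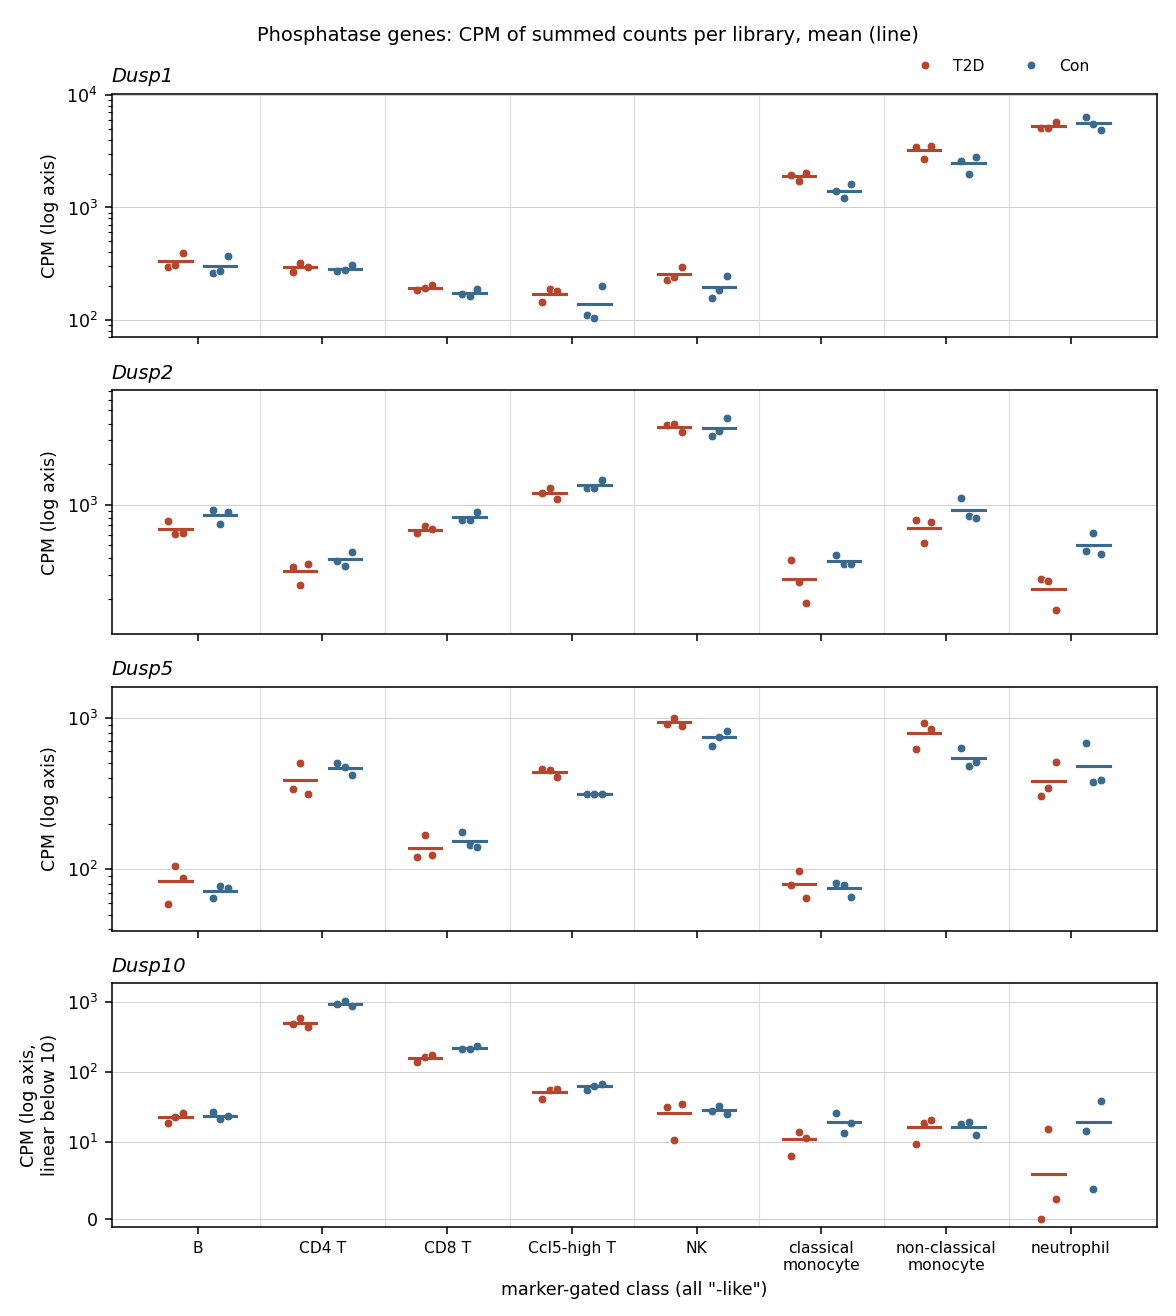
CPM of Dusp1, Dusp2, Dusp5 and Dusp10 in each library by class on log axes (Dusp10 linear below 10), T2D left in red and Con right in blue, with a line at the group mean. Dusp10 in CD4 T-like cells lies between 436 and 583 CPM in T2D and between 877 and 1011 CPM in Con, and Dusp5 in Ccl5-high T-like cells lies above the Con libraries in all 3 T2D libraries.

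**Figure D4:**
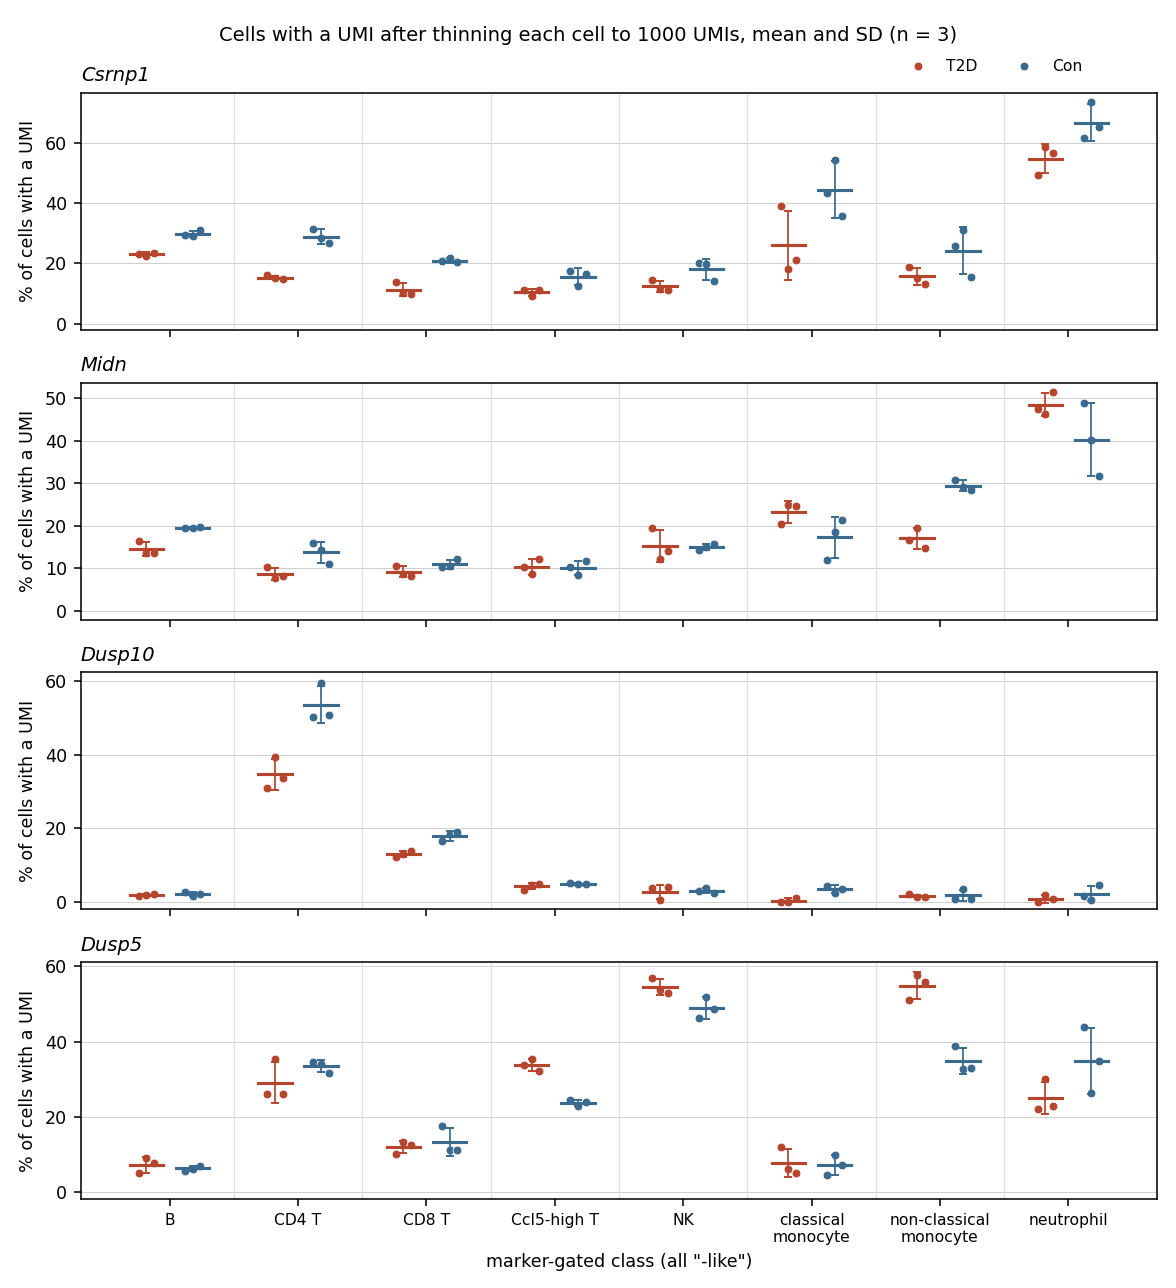
Percent of cells with at least 1 UMI of Csrnp1, Midn, Dusp10 and Dusp5 after thinning every cell to 1000 UMIs, by library and class, T2D left in red and Con right in blue, with the group mean and SD. CD4 T-like cells with a Csrnp1 UMI made up 15.3% in T2D and 28.9% in Con on average, and for Dusp5 in non-classical monocyte-like cells the shares were 54.9% in T2D and 34.8% in Con.

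The genes differed in where they were expressed. Egr1, Egr2, Ier2, Ier5, Csrnp1, Midn and Dusp1 had their highest mean in neutrophil-like cells in both groups. For Dusp1 the order neutrophil-like, non-classical monocyte-like, classical monocyte-like and then lymphocytes had no overlap between neighbours down to the lymphocytes in either group (5309.8 ± 394, 3224 ± 466 and 1902 ± 164 CPM in T2D, and 5621 ± 768, 2477 ± 424 and 1407 ± 199 CPM in Con, SD, n = 3 each). For Egr1 the first 2 classes overlapped in both groups, and for Ier2 the neutrophil-like and non-classical monocyte-like cells overlapped in Con only. For Egr2 the neutrophil-like cells overlapped the regulatory T-like cells in Con only, where the latter held 1 UMI. Dusp2 was highest in NK-like cells (3762 ± 275 CPM in T2D and 3735 ± 608 CPM in Con) and next in Ccl5-high T-like cells (1219 ± 112 CPM in T2D and 1404 ± 114 CPM in Con), both apart from their neighbours. Dusp5 was also highest in NK-like cells, 934 ± 59.8 CPM in T2D and 742 ± 83.4 CPM in Con, overlapping non-classical monocyte-like cells in T2D (800.3 ± 156 CPM) and not in Con (541 ± 78.3 CPM). Dusp10 was highest in CD4 T-like cells (499 ± 75.8 CPM in T2D and 936 ± 68.6 CPM in Con), apart from CD8 T-like cells (156 ± 16.7 CPM in T2D and 217 ± 11.4 CPM in Con), which overlapped the regulatory T-like cells in both groups. In Con the Csrnp1 means of B-like, non-classical monocyte-like and CD4 T-like cells, 369.7 ± 17.5, 351 ± 62.3 and 339.9 ± 12.3 CPM, overlapped, while in T2D the B-like cells, 273 ± 5.36 CPM, stood apart above CD4 T-like cells, 174 ± 20.5 CPM.

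Other immediate early genes were a list of 26, such as Fos, Jun and Nr4a1, chosen with earlier results of these data known. They fell in T2D more often than they rose, with 34 of 189 tests over the classes lower and 3 higher. By class, 0.124% to 2.1% of all genes tested were lower and 0.139% to 1.6% higher. Jun itself was called in no class, and Fos was called only as higher. The list's median log2 fold change was from -0.41 in neutrophil-like to -0.08 in classical monocyte-like cells. In CD4 T-like cells 5 of 25 fell, Fosl2, Junb, Nr4a3, Klf6 and Maff. Nr4a3, an orphan nuclear receptor induced by the T cell receptor, was at 24.1 ± 7.33 CPM in T2D and 117 ± 11.6 CPM in Con (-2.39, adjusted p = 1.55e-07). In CD8 T-like cells 5 of 25 fell, Fosl2, Nr4a1, Nr4a3, Klf4 and Rgs1. In Ccl5-high T-like cells it was again 5 of 25, Junb, Nr4a1, Zfp36, Nfkbia and Rgs1, and in NK-like cells 4 of 21, Junb, Nr4a1, Nfkbia and Rgs1. B-like cells had 4 of 25 lower, Junb, Nr4a3, Btg2 and Cd69, with Junb, the AP-1 subunit, at 1050 ± 108 CPM in T2D and 1731 ± 118 CPM in Con (-0.74, adjusted p = 0.000353). Neutrophil-like cells had 6 of 22 lower, Nr4a1, Gadd45b, Nfkbia, Nfkbiz, Tnfaip3 and Maff, several of them known targets of NF-kappa-B, with Nfkbia at 2956 ± 569 CPM in T2D and 8704 ± 1174 CPM in Con (-1.56, adjusted p = 2.11e-05). The list had 2 of 23 lower in non-classical monocyte-like cells, Nr4a1 and Maff. Classical monocyte-like cells split, with 3 of 23 lower, Nr4a1, Gadd45b and Tnfaip3, and 3 higher, Fos, Btg2 and Klf2. There Fos was at 3457 ± 193 CPM in T2D and 2363 ± 274 CPM in Con (0.56, adjusted p = 0.00128), in the class where Dusp1 rose.

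Of a list of 14 MAP kinases and MAP kinase kinases, none was called by its RNA in any of the 8 classes by edgeR or DESeq2. Of 88 tests, 7 had an unadjusted p under 0.05, against 8.3% to 16% of all genes by class. Other kinases of the cascades were not in the list. Serum response factor and its cofactors had none called by either tool (4 of 38 tests at an unadjusted p under 0.05), and likewise the ERK feedback genes, such as Spry and Spred genes (4 of 23 tests). Of the other Dusp genes, Dusp6, a cytoplasmic ERK phosphatase, fell in B-like cells (90.2 ± 4.44 CPM in T2D and 112 ± 7.91 CPM in Con, log2 fold change -0.33, adjusted p = 0.01), 1 of 7 tested there, and none was called elsewhere. Among the heat shock genes, a list for handling stress, Hsph1 rose in Ccl5-high T-like cells (139.7 ± 24.9 CPM in T2D and 85.9 ± 18.9 CPM in Con, log2 fold change 0.63, adjusted p = 0.0416), 1 of 8 tested, and no other was called.

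Other RNA also moved with the groups in some of these sums. The summed heat shock list overlapped between groups in CD4 T-like cells, with 3292 to 4071 CPM in T2D and 3273 to 3656 CPM in Con, as in the other 7 classes. The 4 red cell markers, all globin genes, summed to 655 to 1584 CPM in T2D and 121 to 411 CPM in Con in CD4 T-like cells. They were also apart in Ccl5-high T-like cells (306 to 3919 CPM in T2D and 89.1 to 157 CPM in Con), NK-like cells (287 to 4411 CPM in T2D and 119 to 158 CPM in Con) and non-classical monocyte-like cells (258 to 705 CPM in T2D and 126 to 146 CPM in Con), and overlapped in the other 4 classes. The median mitochondrial share of UMIs was lower in every T2D library in CD4 T-like (4.47% to 5.16% in T2D and 5.44% to 5.95% in Con), CD8 T-like (4.79% to 5.55% in T2D and 5.57% to 5.96% in Con), Ccl5-high T-like (4.12% to 4.93% in T2D and 5.28% to 5.92% in Con) and non-classical monocyte-like cells (2.02% to 2.25% in T2D and 2.30% to 2.37% in Con). In the other 4 classes it overlapped. The effector markers Ccl5 and Nkg7, neither at 0, were higher in every T2D library in 7 classes and overlapped in NK-like cells. They summed to 90.8 to 111 CPM in T2D and 32.3 to 41.8 CPM in Con in CD4 T-like cells, to 503 to 566 CPM in T2D and 464 to 497 CPM in Con in CD8 T-like cells, and to 9911 to 14610.3 CPM in T2D and 7536 to 9182 CPM in Con in Ccl5-high T-like cells. Outside T and NK cells they summed to 76.1 to 87.5 CPM in T2D and 29.1 to 38.8 CPM in Con in B-like cells, and to 60.6 to 75.9 CPM in T2D and 21.02 to 41.5 CPM in Con in classical monocyte-like cells. In non-classical monocyte-like cells the sums were 60.02 to 66.0 CPM in T2D and 31.0 to 43.5 CPM in Con, and in neutrophil-like cells 95.6 to 286 CPM in T2D and 33.8 to 71.7 CPM in Con. In CD8 T-like cells the 2 CD8 genes (2249.7 to 2417 CPM in T2D and 1929 to 1945 CPM in Con) and 3 gamma-delta T cell genes (8.13 to 11.2 CPM in T2D and 2.51 to 6.04 CPM in Con) were apart as well. In CD4 T-like cells Cd4 was at 816 to 837 CPM in T2D and 712 to 786 CPM in Con. The 3 regulatory T cell genes, 1 of them at 0, summed there to 54.15 to 124 CPM in T2D and 20.3 to 54.11 CPM in Con. For 3 plasmacytoid dendritic cell genes, Siglech, Bst2 and Ccr9, the sums there were 65.0 to 71.9 CPM in T2D and 57.5 to 59.3 CPM in Con. Siglech was at only 0.064 CPM there over all libraries, so the list name does not show that such cells were present. The 2 CD8 genes were at 0 in CD4 T-like cells and Cd4 was at 0 in CD8 T-like cells, as the gate sets. In B-like cells the 4 T cell markers summed to 82.8 to 85.0 CPM in T2D and 53.7 to 73.4 CPM in Con. The 2 CD8 genes summed there to 24.8 to 28.1 CPM in T2D and 12.7 to 17.7 CPM in Con. For the 3 NK cell markers it was 4.80 to 7.52 CPM in T2D and 3.02 to 3.475 CPM in Con. The 3 regulatory T cell genes summed to 8.10 to 11.6 CPM in T2D and 3.47 to 4.57 CPM in Con. Some lists were apart in other classes as well. In Ccl5-high T-like cells Cd4 was at 63.5 to 145 CPM in T2D and 28.3 to 59.8 CPM in Con. The 2 CD8 genes summed there to 1932 to 2027 CPM in T2D and 1688 to 1840 CPM in Con. The 3 plasmacytoid dendritic cell genes summed there to 80.1 to 82.6 CPM in T2D and 62.9 to 73.7 CPM in Con. In neutrophil-like cells the 6 neutrophil markers summed to 76869 to 86632 CPM in T2D and 62168 to 68893 CPM in Con. The 4 eosinophil markers overlapped there, at 174 to 608 CPM in T2D and 173 to 573 CPM in Con. The 4 antibody-secreting cell markers summed to 412 to 508 CPM in T2D and 235 to 343 CPM in Con in non-classical monocyte-like cells, to 363 to 465 CPM in T2D and 279 to 300.0 CPM in Con in classical monocyte-like cells, and to 58.5 to 60.4 CPM in T2D and 35.6 to 49.0 CPM in Con in Ccl5-high T-like cells. Of these markers, Jchain was at only 9.83 CPM in non-classical and 5.17 CPM in classical monocyte-like cells over all libraries. The part of these RNAs in the results was not tested.

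The genes whose pattern was most like the mean of the 10 were named by Pearson's r of log2 CPM over 3429 genes with at least 20 CPM in each class. Over the 48 sums of a library and class, each class centred on its own mean, they included Arf4 (0.69), Nr4a1 (0.68), Ccnl1 (0.67) and Fth1 (0.67). Over the 8 class means they were Csnk1e (0.97), Zfand3 (0.97), Ppp1r12c (0.96), Pnpla2 (0.95) and Mbd6 (0.95). The points share libraries and depth, so these are descriptions.

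Some reads could belong to neighbours. Csrnp1, Dusp1 and Dusp5 overlap genes on the opposite strand, and the sources used here do not give the strand setting of the counting. Summed over all libraries, 1700019L13Rik had 150 UMIs beside 47619 of Csrnp1, and Ergic1 had 2359 UMIs beside 92842 of Dusp1. AC137853.2, which overlaps Dusp5, is not among the counted genes. Exons of 1700056E22Rik overlap the promoter window of Dusp10, and their UMIs were not compared.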

How the data were processed

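Single-cell RNA of mouse blood mononuclear cells was measured in 6 libraries, 3 T2D and 3 Con, grouped by sample title. The authors deposited 1 matrix for each library, of raw UMI counts by gene and barcode. CASAVA 1.8, UMI-tools, Seurat and the build mm10 are named, per the submitters' processing notes, without roles. The sources used here do not give the aligner, the annotation or the strand setting.

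Barcodes were kept from 200 genes upwards and up to 20% of UMIs from mitochondrial genes. Cells were gated on raw UMIs of lineage markers, with at least 4 own-lineage UMIs (8 for neutrophil-like cells) and, in most gates, at most 2 of other lineages. The 2 monocyte-like classes needed at least 2-fold more UMIs of the markers of their own kind. T cells were split by Cd4, the 2 CD8 genes, the regulatory markers and Ccl5. These thresholds were set after the marker counts had been seen. Of the B-like cells 1207 were at the threshold, and 1252 other cells were 1 UMI short of it. No doublet caller was run. The gate removes pairs of 2 lineages, not pairs of 1 class. To look for libraries deposited more than once, gene totals were compared by chi-square, and the lowest chi-square over degrees of freedom was 9.43.

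Counts were summed per library and class, and classes with at least 30 cells in each library were tested with R 4.3.3 and edgeR 4.0.16 (TMM, filterByExpr, robust quasi-likelihood fit, Benjamini-Hochberg over all genes tested). The fits were also run on simulated counts with the same spread for every gene, where only genes above a set level were changed. That check does not cover members that vary more between libraries or have lower counts. Differences between classes were tested as interactions with the library as a block, in 5 pairs, with the adjustment over the genes of each pair. For shares, each cell was thinned once to 1000 UMIs, and shallower cells were left out. Floors and shares cover counting error only. Alternatives were DESeq2 1.42.0, other scalings, no filter on low counts, other gates, and leaving out each library. All 10 genes are named in each class tested, list genes where they passed the test, and the 5 genes most alike by each measure, of which 1 is not reported here. The genes, the lists and the tests were chosen with earlier results of these data known. Gene names are the files' own. Promoter sequences are RefSeq's, on GRCm38.p6.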

Additional observations from a re-analysis of the deposited data

Results flagged for a closer look

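In 6 cases the difference of T2D from Con was itself different between 2 cell classes by the interaction test of edgeR, with adjusted p under 0.05 over all genes of the pair. The log2 fold change of Csrnp1 was lower in CD4 T-like than in B-like cells by -0.59 (adjusted p = 1.37e-06). Midn was higher in CD8 T-like than in B-like cells by 0.39 (adjusted p = 0.00917), and higher in CD8 T-like than in CD4 T-like cells by 0.63 (adjusted p = 0.00108). Its log2 fold change in classical monocyte-like cells exceeded that in B-like cells by 0.66 (adjusted p = 0.0132), and in neutrophil-like cells by 0.73 (adjusted p = 0.028). Dusp10 was lower in CD8 T-like than in B-like cells by -0.41 (adjusted p = 0.0443). A Dusp10 UMI was found in 2.01% of B-like cells in T2D and 2.22% in Con at 1000 UMIs a cell. The last case therefore sets CD8 T-like cells against a class where Dusp10 was low, and whether its UMIs there are free RNA was not tested.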

How the results depend on the processing

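Of the 22 calls, 9 were made in every alternative fit and 10 in every fit without 1 library, and the lost ones are given with their genes. Most values that changed sign lay near 0. With a stricter gate Dusp10 in B-like cells was 0.063, and with library totals as the only scaling Dusp1 in CD4 T-like cells was 0.050. With no filter Ier5 in NK-like cells was 0.012. Without the cells of most UMIs Dusp2 in NK-like cells was -0.012 and Midn in classical monocyte-like cells -0.033. With a looser gate Dusp1 in neutrophil-like cells was 0.0063. Midn in classical monocyte-like cells moved further with that gate, to -0.15, from 0.08 in the reported fit. The number of the genes past the threshold in B-like cells was 4 with no filter and 4 with the replicate block. In Ccl5-high T-like cells it was 0 with a stricter gate (6 of 9 at an unadjusted p under 0.05, beside 14.9% of all genes with the reported gate). In classical monocyte-like cells it was 3 with the block, 0 with DESeq2, 0 with a looser gate and 0 without the cells of most UMIs (2, 2 and 1 at an unadjusted p under 0.05, beside 8.3% of all genes in the reported fit). In neutrophil-like cells it was 2 with library totals, 2 with no filter, 2 with the block and 0 with a looser gate (4 at an unadjusted p under 0.05, beside 10.9%), and in all cells 5 with DESeq2. With a stricter gate the class differences lost their calls for Midn in CD8 T-like against B-like cells (0.29, adjusted p = 0.583) and CD8 T-like against CD4 T-like cells (0.62, adjusted p = 0.0718), and for Dusp10 in CD8 T-like against B-like cells (-0.54, adjusted p = 0.136). The cause was not tested. The stricter gate was not run for NK-like, monocyte-like and neutrophil-like cells, which had under 30 cells in a library.

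Without 1 library at a time the number of the genes past the threshold was 2 to 3 in B-like, 4 to 7 in CD4 T-like, 3 to 6 in CD8 T-like, 1 to 5 in Ccl5-high T-like, 0 to 1 in NK-like, 0 to 2 in classical monocyte-like, 2 to 5 in non-classical monocyte-like and 1 to 3 in neutrophil-like cells, and 2 to 3 in all cells. The class differences ranged from -0.66 to -0.49 for Csrnp1 in CD4 T-like against B-like cells and from -0.52 to -0.35 for Dusp10 in CD8 T-like against B-like cells. For Midn they ranged from 0.31 to 0.47 in CD8 T-like, 0.52 to 0.83 in classical monocyte-like and 0.51 to 0.89 in neutrophil-like against B-like cells, and from 0.51 to 0.85 in CD8 T-like against CD4 T-like cells. Uncalled values that crossed 0 ranged in B-like cells from -0.26 to 0.048 (Ier5), -0.023 to 0.39 (Dusp5) and -0.19 to 0.017 (Dusp10), in CD4 T-like cells from -0.10 to 0.034 (Dusp1), and in NK-like cells from -0.16 to 0.095 (Ier5), -0.081 to 0.14 (Dusp2) and -0.33 to 0.23 (Dusp10). In classical monocyte-like cells they ranged from -0.023 to 0.25 (Ier5), -0.059 to 0.23 (Midn) and -0.10 to 0.27 (Dusp5), in non-classical monocyte-like cells from -0.072 to 0.22 (Dusp10), in neutrophil-like cells from -0.021 to 0.26 (Midn), -0.18 to 0.021 (Dusp1) and -0.53 to 0.023 (Dusp5), and in all cells from -0.066 to 0.17 (Dusp1).

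The labels do not say that library numbers pair the samples. Deviations of same-numbered libraries correlated from -0.04 to 0.21, with 2 of 24 correlations over 0.1. In some cases the correlation was highest with the library of the same number, and in others it was not. Such weak values cannot settle whether same-numbered libraries share an effect. The replicate block moved the calls over all genes to 427 in B-like cells (185 without it), 442 in Ccl5-high T-like (278), 26 in NK-like (17), 73 in classical monocyte-like (42) and 106 in non-classical monocyte-like cells (56), and Dusp10 in non-classical monocyte-like cells to -0.021. With no filter the calls were 505 in B-like, 37 in NK-like and 943 in all cells (579 with it). DESeq2 called 226 in CD4 T-like (345 by edgeR), 24 in classical and 32 in non-classical monocyte-like cells and 986 in all cells. A stricter gate gave 131 in CD4 T-like, 82 in CD8 T-like (138) and 36 in Ccl5-high T-like cells, a looser one 76 in classical monocyte-like cells, and leaving out the cells of most UMIs 181 in Ccl5-high T-like and 26 in classical monocyte-like cells. Without 1 library they ranged from 52 to 305 in B-like and from 163 to 375 in CD4 T-like cells. Low counts limit Egr2 in all classes and Dusp10 outside T cells.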
